A study of Mus musculus with 2 samples.

Results

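The TNF superfamily is a set of trimeric signalling ligands and of the receptors they engage, and 10 of its genes are described here in mouse blood neutrophils. The 10 were chosen by name as 6 ligands (Tnf, Lta, Ltb, Tnfsf10, Tnfsf13b and Tnfsf14) and 4 receptors (Tnfrsf1a, Tnfrsf1b, Tnfrsf13b and Tnfrsf13c), with no measured value in the rule, and all were found among the 55536 annotated genes, 22028 of them protein-coding. Earlier results of these data were known when the genes were chosen. Total RNA of neutrophils from the peripheral blood of adult C57BL/6J mice aged 5 to 6 weeks was sequenced in 2 libraries of 1 group, with no treatment and no genetic change listed. The ScriptSeq v2 kit was used on 100 ng of RNA per library, and the labels give sizes of 200 to 1000. The labels number the libraries as biological replicates but give both the same donor identifier, with sex not collected and no count of pooled animals, so the spread between them may be technical. With 1 group there was no condition to compare, and the comparisons below are between genes within a library and between the libraries.

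TNF itself is an inflammatory cytokine that is made as a membrane protein and cut free by the protease ADAM17. It signals through TNFR1 (Tnfrsf1a), which carries a death domain, and TNFR2 (Tnfrsf1b), which does not, and both lead to NF-kappaB through adaptor and ubiquitin-ligase complexes. A second arm of the family serves B cells: BAFF (Tnfsf13b), which myeloid cells including neutrophils release, keeps them alive through BAFF-R (Tnfrsf13c) and also binds TACI (Tnfrsf13b). Lymphotoxin and LIGHT (Tnfsf14) act on the lymphotoxin-beta receptor in lymphoid tissue, and TRAIL (Tnfsf10) triggers death receptors on other cells.

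Replicate 1 had 22646991 expected counts in the main table, replicate 2 had 21471673, and a count of 0 allows up to 0.132 CPM (counts scaled to the library's total) in replicate 1 and 0.140 in replicate 2. Levels are in TPM, a length-corrected abundance with the same sum in every library, so genes can be compared on it. Nuclear protein-coding genes took 8.81% of the TPM in replicate 1 and 8.35% in replicate 2, which makes the TPM of every such gene low in these total-RNA libraries. All 11 neutrophil markers were detected (TPM of at least 1 in both libraries), with a summed level of 2525 TPM in replicate 1 and 2557 in replicate 2, from Ly6g at a mean of 2.10 to S100a9 at 1199. The RNA also held markers of other blood cells, none of them with a mean of 0. All 12 B-cell markers were detected and summed to 722 and 659 TPM in replicates 1 and 2, led by Ighm, Ighd and Cd79b and lowest for Cr2 at a mean of 14.9. Of 12 T-cell markers 11 were detected, summing to 41.1 and 40.6 TPM, and of 9 monocyte markers 6 were detected, summing to 35.5 and 32.2. Of the 8 NK-cell markers 2 were detected, with sums of 8.13 and 8.21 TPM, of the 7 dendritic-cell markers 1, with 2.43 and 2.30, of the 8 red-cell markers 5, with 4329 and 4264, and of the 7 platelet markers 5, with 24.5 and 25.0. In RNA from a mixture, fewer cells of a type and less RNA per cell cannot be told apart.

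Of the 10 members, 8 were detected, beside 34.9% of the 22028 protein-coding genes, and together the 10 took 0.0911% and 0.102% of the protein-coding TPM of replicates 1 and 2. Ltb was highest, followed by Tnfrsf1a, Tnfrsf13b, Tnfrsf13c, Tnfrsf1b, Tnfsf14, Tnf, Tnfsf13b, Lta and Tnfsf10. All 4 receptors were detected and 4 of the 6 ligands. Of the neighbours in this order, Ltb and Tnfrsf1a did not differ beyond their spread, with a log2(TPM + 1) difference of 0.23 ± 0.23 (SD, n = 2). Tnfrsf13b and Tnfrsf13c, at 0.0616 ± 0.0611, passed the rule used here (the same sign in both libraries and a mean above the SD) by almost nothing. Tnf and Tnfsf13b differed by 0.16 ± 0.15 and Tnfsf13b and Lta by 0.38 ± 0.27. The widest step was that from Tnfsf14 down to Tnf, 1.70 ± 0.00677.

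**Figure D1:**
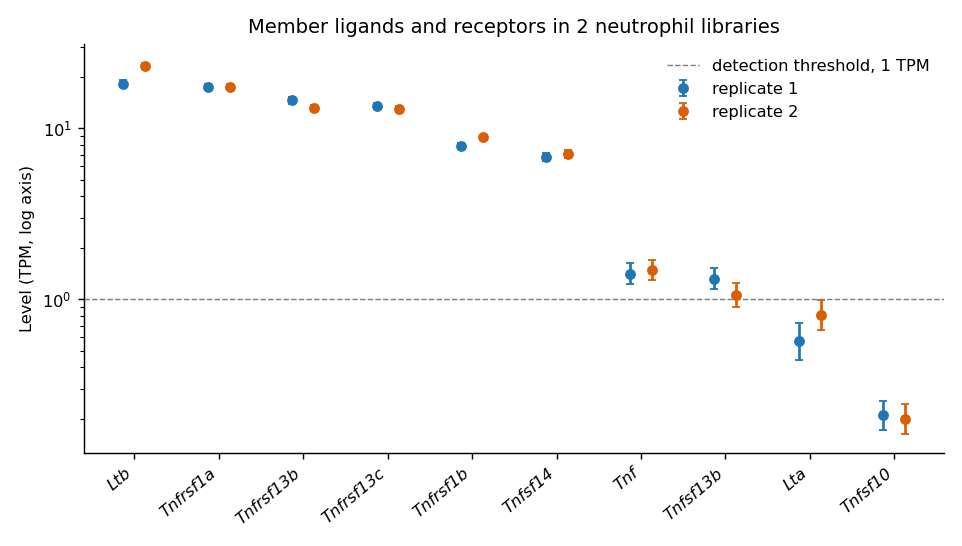
Level of each member in replicates 1 and 2, in TPM on a log axis, ordered by the mean, with bars for the exact 95% Poisson interval of the counts in each library (counting error only). Tnfsf10 lies near 0.2 TPM and Lta below 1 TPM in both libraries, and Ltb shows the clearest gap between the libraries, at 18.2 and 23.2 TPM.

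Among the ligands, Ltb, the membrane-anchoring subunit of surface lymphotoxin, had 18.2 TPM from 1825 expected counts in replicate 1 and 23.2 TPM from 2282 in replicate 2. Its mean of 20.7 ± 3.56 (SD, n = 2) put it at the 96.7th percentile of protein-coding genes, and replicate 2 was the higher library. Lta, the other subunit, which as a soluble trimer also binds the TNF receptors, had 0.57 TPM from 68 counts and 0.81 TPM from 97 counts, again higher in replicate 2 and under the detection threshold in both. Tnf had 1.41 TPM from 203 counts and 1.48 TPM from 216 counts, a mean of 1.45 ± 0.0495 (SD, n = 2), with the Poisson intervals of the libraries overlapping at 1.22 to 1.62 and 1.29 to 1.69 TPM. Tnf thus stood at the 67.9th percentile of protein-coding genes and Lta at the 60.6th.

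These 3 ligand genes are neighbours on chromosome 17 in GRCm38, the assembly that mm10 names. Ltb (ENSMUSG00000024399.5) lies at chr17:35194439-35196320 on the plus strand, Tnf (ENSMUSG00000024401.14) at chr17:35199381-35202007 and Lta (ENSMUSG00000024402.5) at chr17:35203165-35205351, both on the minus strand, so that the 3 span 10913 bases, with 3060 bases between Ltb and Tnf and 1157 between Tnf and Lta. Across this short stretch Ltb was highest, then Tnf, then Lta: Ltb exceeded Tnf by 3.14 ± 0.21 (SD, n = 2) on the log2(TPM + 1) scale and Lta by 3.68 ± 0.09, and Tnf exceeded Lta by 0.54 ± 0.12, all with the same sign in both libraries. In counts per effective length, Ltb was 31.9 times Lta in replicate 1, with an exact 95% interval of 25.0 to 41.2, and 28.8 times in replicate 2, with 23.5 to 35.7. Tnf was 2.47 times Lta in replicate 1, with 1.87 to 3.30, and 1.84 times in replicate 2, with 1.44 to 2.37. The miRNA genes Mir6973a and Mir6974 lie within Ltb and Lta on the same strand and had 0 counts in both libraries. Both are shorter than the sizes of 200 to 1000 that the labels give, so the 0 counts do not show that they were absent. Of the 6 other genes of the locus that the tables hold, Lst1, a leukocyte membrane protein, was highest at 45.8 and 55.8 TPM, followed by the RNA helicase Ddx39b at 13.6 and 12.7, or 5.99 and 5.57 with coding transcripts alone. Those 2 were detected, and Nfkbil1 at 0.93 and 0.92, Aif1 at 0.69 and 0.43, and the pseudogene Ncr3-ps at 0.03 and 0 were not.

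The 250 bases before the RefSeq start (GRCm38.p6) of these 3 genes are shown because their levels differ so widely within 1 locus. Each is read 5′ to 3′ on its gene's strand, at chr17:35202008-35202257 for Tnf, chr17:35205352-35205601 for Lta and chr17:35194257-35194506 for Ltb. The Ltb window runs past the GENCODE start of the gene at 35194439, so its last bases lie within that gene model. Capitals mark matches to GGGNNNNNCC on either strand, a loose form of the NF-kappaB motif, and to TATAAA on the gene's strand.
Tnf: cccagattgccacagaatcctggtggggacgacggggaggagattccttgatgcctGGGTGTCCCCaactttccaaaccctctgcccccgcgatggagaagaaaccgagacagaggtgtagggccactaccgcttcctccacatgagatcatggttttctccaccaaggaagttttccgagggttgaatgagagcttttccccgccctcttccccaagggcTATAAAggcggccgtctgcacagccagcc
Lta: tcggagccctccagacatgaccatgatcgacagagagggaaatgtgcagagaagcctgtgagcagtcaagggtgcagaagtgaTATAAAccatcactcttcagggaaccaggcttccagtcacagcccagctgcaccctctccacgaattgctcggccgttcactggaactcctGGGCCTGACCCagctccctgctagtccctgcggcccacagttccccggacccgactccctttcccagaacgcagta
Ltb: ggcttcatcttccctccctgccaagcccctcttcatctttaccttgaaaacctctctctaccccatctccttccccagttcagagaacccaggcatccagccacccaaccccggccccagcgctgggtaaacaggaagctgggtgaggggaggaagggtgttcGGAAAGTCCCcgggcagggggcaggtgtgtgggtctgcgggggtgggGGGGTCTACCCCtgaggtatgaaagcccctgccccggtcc
The loose motif was found in all 3, in 8 of the 10 members and in 45.8% of 32851 promoter windows of this length, so a match says little. Overlapping matches at neighbouring bases make up some of the capitals. TATAAA stood 29 bases before the start in Tnf and 167 bases before it in Lta, was absent from this window of Ltb, and was found in 7.59% of all windows.

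Tnf mRNA is known for AU-rich elements in its 3′ UTR, which the RNA-binding protein tristetraprolin (Zfp36) uses to destabilise it. The stretch of 30 bases with the most ATTTA pentamers in the 3′ UTR of Tnf-201, which starts at base 437 of the UTR and holds 5 of them, is shown with the pentamers in capitals.
Tnf-201: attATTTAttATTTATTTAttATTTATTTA
The nonamer ATTTATTTA was present 2 times in the Tnf 3′ UTR, once each in those of Lta and Tnfsf13b and not in those of the other 7 members, beside 5.52% of 21039 genes with an annotated 3′ UTR. Zfp36 was the highest of 10 genes for the making and release of TNF, at 48.4 and 40.4 TPM in replicates 1 and 2. It was followed by Litaf at 17.9 and 17.0, the RNA-binding protein Tia1 at 12.6 and 13.2 and the kinase Map3k8 at 10.8 and 11.3. Of these 10 genes 9 were detected, the median level of the list was 7.63 and 8.09 TPM, and the lowest was the rhomboid-like Rhbdf1 at 0.31 and 0.38. With coding transcripts alone, 8 of the 10 were detected, Zfp36 kept its whole level and Litaf stood at 17.5 and 16.6 TPM, but Tia1 stood at 0.54 and 1.39 and Map3k8 at 2.96 and 2.45.

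Tnfsf14 (LIGHT; ENSMUSG00000005824.7, chr17:57189492-57194177, minus strand) was the second ligand in level and lies on the same chromosome but far from the cluster. It had 6.80 TPM from 1118 counts in replicate 1 and 7.08 TPM from 1175 counts in replicate 2, a mean of 6.94 ± 0.20 (SD, n = 2), with 1 annotated transcript. It exceeded Tnf by 1.70 ± 0.00677 on the log2(TPM + 1) scale and was 4.83 times Tnf per effective length in replicate 1 (95% interval 4.15 to 5.63) and 4.77 times in replicate 2 (4.12 to 5.54). Tnfsf10 (TRAIL; ENSMUSG00000039304.11, chr3:27317028-27342427, plus strand) was the lowest member, at 0.21 TPM from 100 counts and 0.20 TPM from 96 counts, the 52.8th percentile of protein-coding genes. The libraries overlapped for Tnfsf10, and all its counts fell on the long transcript of 4993 bases and weigh little per length.

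Tnfsf13b (BAFF; ENSMUSG00000031497.9, chr8:10006467-10039072, plus strand) had 1.32 TPM from 208 counts in replicate 1 and 1.06 TPM from 154 counts in replicate 2, a mean of 1.19 ± 0.18 (SD, n = 2). Most of that TPM was assigned to transcripts that are annotated as retained introns and code for no protein. Tnfsf13b-206, of 861 bases, took 41.2% and 66.9% of the gene's TPM in replicates 1 and 2, and Tnfsf13b-204, of 2230 bases, took 31.3% and 20.6%. The coding transcripts together took 21.3% and 12.5%, that is 0.29 and 0.13 TPM, so that with coding transcripts alone BAFF was below detection. Over the 7682 detected protein-coding genes the median coding share was 74.6% and 75.1%, and 23.6% and 23.4% of them had a coding share under 50%. By counts the coding share of Tnfsf13b was larger, 38.4% and 39.1%, because the coding model Tnfsf13b-203 is long. The counts behind these shares were few: 37.0 and 49.1 for Tnfsf13b-206, 83.4 and 44.7 for Tnfsf13b-204, and 65.5 and 60.2 for Tnfsf13b-203. On the older M4 gene models the gene had 0.72 and 0.57 TPM.

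The places where the transcripts differ are shown to make the models concrete (GENCODE M21). Tnfsf13b-203, the full form of 309 codons, holds an exon of 57 bases at chr8:10021373-10021429, in capitals. Tnfsf13b-201, of 290 codons, joins the flanking exons directly, the structure of the short form of mouse BAFF known as delta-BAFF. Tnfsf13b-204 runs on from the same exon for 1471 bases into the intron, of which the first 30 are in capitals, and Tnfsf13b-206 keeps a whole intron of 83 bases at chr8:10031423-10031505, in capitals.
Tnfsf13b-203: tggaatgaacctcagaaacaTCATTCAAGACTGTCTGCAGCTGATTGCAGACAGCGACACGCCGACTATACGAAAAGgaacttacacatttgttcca
Tnfsf13b-201: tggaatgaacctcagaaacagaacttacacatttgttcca
Tnfsf13b-204: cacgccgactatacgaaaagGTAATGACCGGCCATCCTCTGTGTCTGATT
Tnfsf13b-206: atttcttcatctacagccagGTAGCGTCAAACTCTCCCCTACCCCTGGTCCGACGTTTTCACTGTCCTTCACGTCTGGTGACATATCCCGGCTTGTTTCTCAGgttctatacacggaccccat
Tnfsf13b-201 took 10.3% of the TPM in replicate 1 from 14.3 counts and 0% in replicate 2, while Tnfsf13b-203 took 11.01% and 12.5%. The alignment-free table gave Tnfsf13b-201 12.3% and 4.94% and Tnfsf13b-203 5.07% and 7.92%. The order of the pair therefore differed between libraries and tables, and the files hold no count of reads across the junction itself. For Tnfsf13b-206 the alignment-free table gave 31.9% and 64.6% and for Tnfsf13b-204 31.1% and 20.1%, so the retained-intron models led in both tables and both libraries. The antisense entry Gm44789, which overlaps the gene, had 0 counts.

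**Figure D2:**
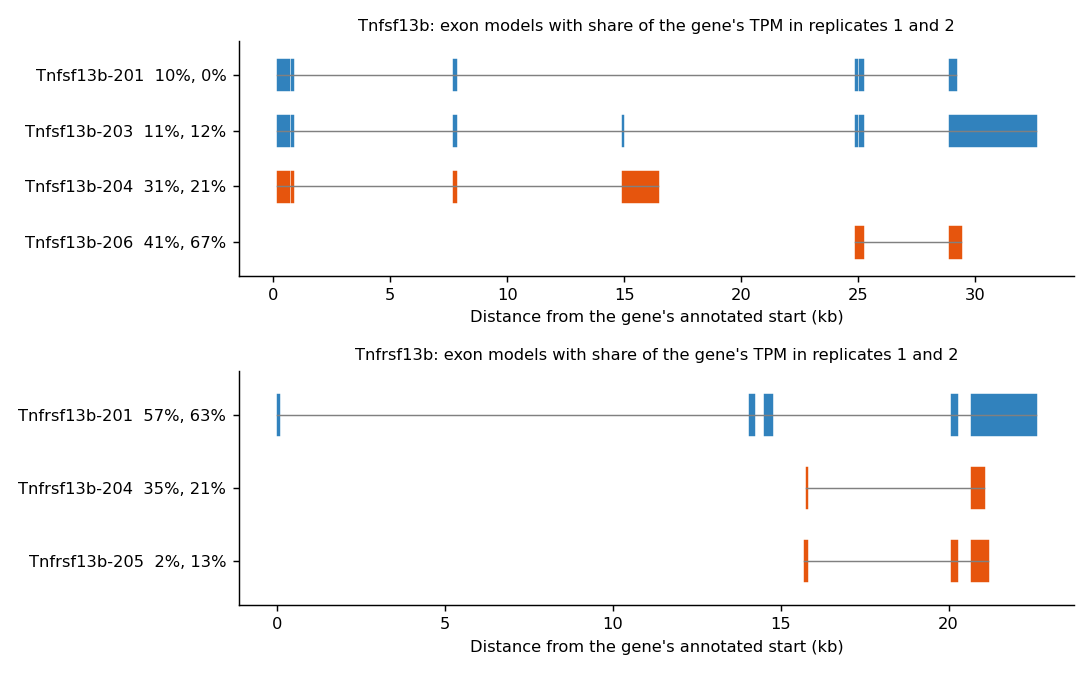
Exon models of the transcripts of Tnfsf13b and Tnfrsf13b that took at least 10% of their gene's TPM in either library, drawn to scale by distance from the gene's annotated start in kb, blue for protein-coding and orange for other biotypes, with the share in replicates 1 and 2 beside each name. The orange models are shorter than the main coding model of the gene and cover only part of its exons.

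Among the receptors, Tnfrsf1a (TNFR1; ENSMUSG00000030341.17, chr6:125349362-125362484, plus strand) had 17.4 TPM from 2379 counts in replicate 1 and 17.5 TPM from 2463 counts in replicate 2, the 96.1st percentile. Tnfrsf1b (TNFR2; ENSMUSG00000028599.10, chr4:145213463-145246870, minus strand) had 7.86 TPM from 2807 counts and 8.87 TPM from 3191 counts, the 90.6th percentile. Tnfrsf1b had the more counts of the pair and the lower level per length, its effective length being 3653 bases against 1400 for Tnfrsf1a in replicate 1. On the log2(TPM + 1) scale Tnfrsf1b was lower than Tnfrsf1a by a mean difference of -0.98 ± 0.10 (SD, n = 2), and per effective length it was 0.452 times Tnfrsf1a in replicate 1 (95% interval 0.428 to 0.478) and 0.507 times in replicate 2 (0.481 to 0.535). Both receptors stood above their ligand: Tnfrsf1b exceeded Tnf by 1.94 ± 0.08.

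All the TPM of Tnfrsf1b fell on its full-length transcript, whereas Tnfrsf1a was divided. Tnfrsf1a-201, which codes for all 454 codons, took 55.95% and 58.1% of the gene's TPM in replicates 1 and 2. Tnfrsf1a-205, a retained-intron model that begins with 70 intron bases, took 25.0% and 26.8%, and Tnfrsf1a-206, annotated as coding although it reads through an intron of 102 bases near its end, took 19.0% and 15.0%. The alignment-free table gave Tnfrsf1a-201 48.4% and 53.6%. With coding transcripts alone Tnfrsf1a stood at 13.02 and 12.8 TPM, and its distance to Tnfrsf1b narrowed to -0.57 on the log2(TPM + 1) scale. Those coding levels include Tnfrsf1a-206, at 3.30 and 2.63 TPM. Tnfrsf1a-201 by itself had 9.72 and 10.17 TPM.

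The BAFF receptors stood close together. Tnfrsf13b (TACI; ENSMUSG00000010142.12, chr11:61126755-61149372, plus strand) had 14.6 TPM from 2111 counts in replicate 1 and 13.2 TPM from 2154 counts in replicate 2, and Tnfrsf13c (BAFF-R; ENSMUSG00000068105.11, chr15:82221743-82224369, minus strand) had 13.5 TPM from 2285 counts and 13.01 TPM from 2180. Both are known chiefly as receptors of B cells. Their difference, Tnfrsf13c minus Tnfrsf13b, was -0.0616 ± 0.0611 (SD, n = 2) on the log2(TPM + 1) scale, and the per-length ratio was 0.925 in replicate 1 (95% interval 0.872 to 0.982) and 0.987 in replicate 2 (0.929 to 1.05), which includes 1. With coding transcripts alone the order turned, to 0.53 in favour of Tnfrsf13c, and in the alignment-free table it was -0.43. Tnfrsf13c exceeded its ligand Tnfsf13b by 2.70 ± 0.09 and was 10.2 times as high per effective length in replicate 1 (8.84 to 11.8) and 12.2 times in replicate 2 (10.4 to 14.5). The 12 B-cell markers, which these libraries hold at means of 14.9 to 276 TPM, have means above those of both receptors, 13.9 and 13.2 TPM, in the same libraries. Their part in the levels of Tnfrsf13b, Tnfrsf13c, Ltb and Lta was not tested, nor was that of the T-cell markers.

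The TPM of Tnfrsf13b, like that of Tnfsf13b, included a large share from short models. Its full-length transcript Tnfrsf13b-201 held 1948 of the 2111 counts in replicate 1 and 1970 of the 2154 in replicate 2, but 57.2% and 63.4% of the TPM. Tnfrsf13b-204, a processed transcript of 422 bases, held 129 and 73.1 counts and took 35.2% and 21.4% of the TPM. Tnfrsf13b-205, of 764 bases, held 19.4 and 104 counts and took 2.27% and 13.2%. Both begin at an exon inside intron 3 of the 5-exon full model, and so lack the exons that code for the start of the protein. The alignment-free table gave Tnfrsf13b-201 40.2% and 38.8%, Tnfrsf13b-204 26.4% and 31.3% and Tnfrsf13b-205 3.67% and 12.2%. It also gave 25.9% and 15.2% to Tnfrsf13b-203, a processed transcript with 0% in the main table. There the coding transcripts held 44.1% and 41.3% of the TPM. The gene was lower in replicate 2 in TPM and higher in CPM, at 100.3 against 93.2 in replicate 1, while its effective length went from 1483 to 1661 bases. Tnfrsf13c was mostly 1 transcript, Tnfrsf13c-201, at 83.7% and 87.3%, with the coding Tnfrsf13c-202 at 13.8% and 7.68%.

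For Ltb, the coding Ltb-201 took 88.2% and 76.2% and the retained-intron Ltb-202 11.8% and 11.4%, almost the same in both libraries. Ltb-202 keeps an intron of 338 bases, whose first 30 are shown in capitals because these bases set it apart from the coding transcript.
Ltb-202: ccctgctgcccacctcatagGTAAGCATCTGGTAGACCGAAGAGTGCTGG
Ltb-203, which leaves out 86 bases of the second exon, took 0% in replicate 1 and 12.4% in replicate 2, but 1.88% and 1.94% in the alignment-free table, so its absence from replicate 1 was not seen there. Tnf, Lta, Tnfsf10, Tnfsf14 and Tnfrsf1b were each assigned to 1 transcript in both libraries. In 9 of the 10 members coding transcripts took at least 50% of the TPM in both libraries, Tnfsf13b being the exception, and in the alignment-free table in 8.

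**Figure D3:**
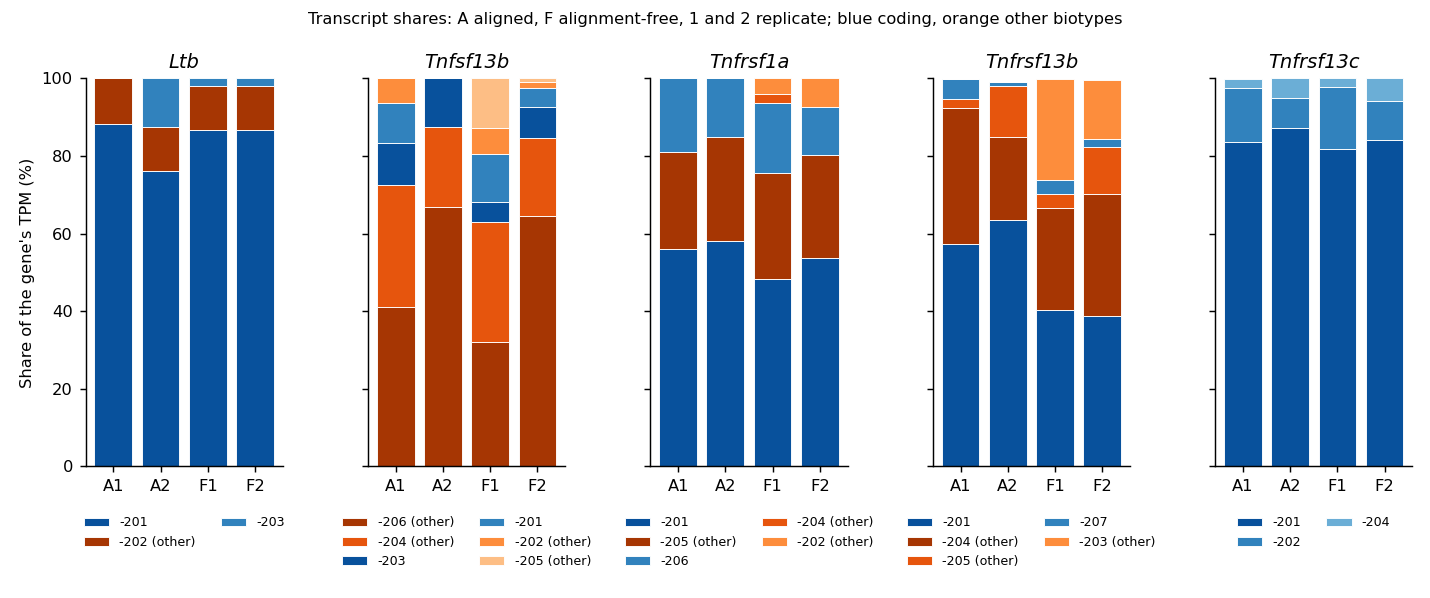
Share of each gene's TPM taken by its transcripts, in percent, for the 5 members with more than 1 transcript in use, from the table of aligned reads (A) and the alignment-free table (F) in replicates 1 and 2, blue for protein-coding and orange for other biotypes; transcripts under 2% in every column are not drawn. Orange fills most of the Tnfsf13b columns, and none of the Tnfrsf13c columns.

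Of the receptors that complete the members' ligand pairs, 2 of 7 were detected, beside 34.9% of the protein-coding genes. Ltbr, the lymphotoxin-beta receptor that binds surface lymphotoxin and LIGHT, had 3.92 and 3.56 TPM in replicates 1 and 2, and Tnfrsf14 (HVEM), the other receptor of LIGHT, had 2.80 and 2.75. These were the 2 detected. For TRAIL, the death receptor Tnfrsf10b had 0.12 and 0.07 TPM, and the mouse decoy receptors Tnfrsf22 and Tnfrsf23 had 0.18 and 0.17, and 0.74 and 0.82. Tnfrsf22 and Tnfrsf23 are near copies with fractional counts, so the split between them is uncertain, and none of the TPM of Tnfrsf23 was on a coding transcript. The soluble decoy Tnfrsf11b (osteoprotegerin) had 0 counts in both libraries, and Tnfrsf17 (BCMA), the plasma-cell receptor of BAFF, had 0 counts and 8.

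None of the 12 other ligands of the family was detected, beside 34.9% of the protein-coding genes. The highest were Tnfsf13 (APRIL) at 0.32 and 0.27 TPM, Tnfsf8 (CD30 ligand) at 0.26 and 0.31, Fasl at 0.39 and 0.12 and Cd40lg at 0.30 and 0.10, the last pair both lower in replicate 2. The counts of Tnfsf13 were fractional, shared with other annotated genes, so its level is uncertain. Tnfsf4 (OX40 ligand) was 1 of 4 ligands with 0 counts in both libraries. The 6 member ligands held 94.9% and 97.0% of the summed TPM of all 18 ligand genes. Of the 16 other receptors 6 were detected, a share near that 34.9%. Cd40, the costimulatory receptor of B cells and other antigen-presenting cells, was highest at 5.49 and 6.61 TPM. The death receptor Fas had 5.55 and 5.16. Tnfrsf21 followed at 2.58 and 2.46 and Cd27 at 2.15 and 1.90, and Edar, a receptor of skin appendages, had 0 counts. With coding transcripts alone Cd40 had 3.69 and 3.60 TPM and Cd27 1.08 and 1.57. The 4 member receptors held 64.7% and 64.5% of the summed TPM of the 27 receptor genes. The members were chosen with earlier results of these data known, so their shares of the ligand and receptor sums may follow from that choice.

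**Figure D4:**
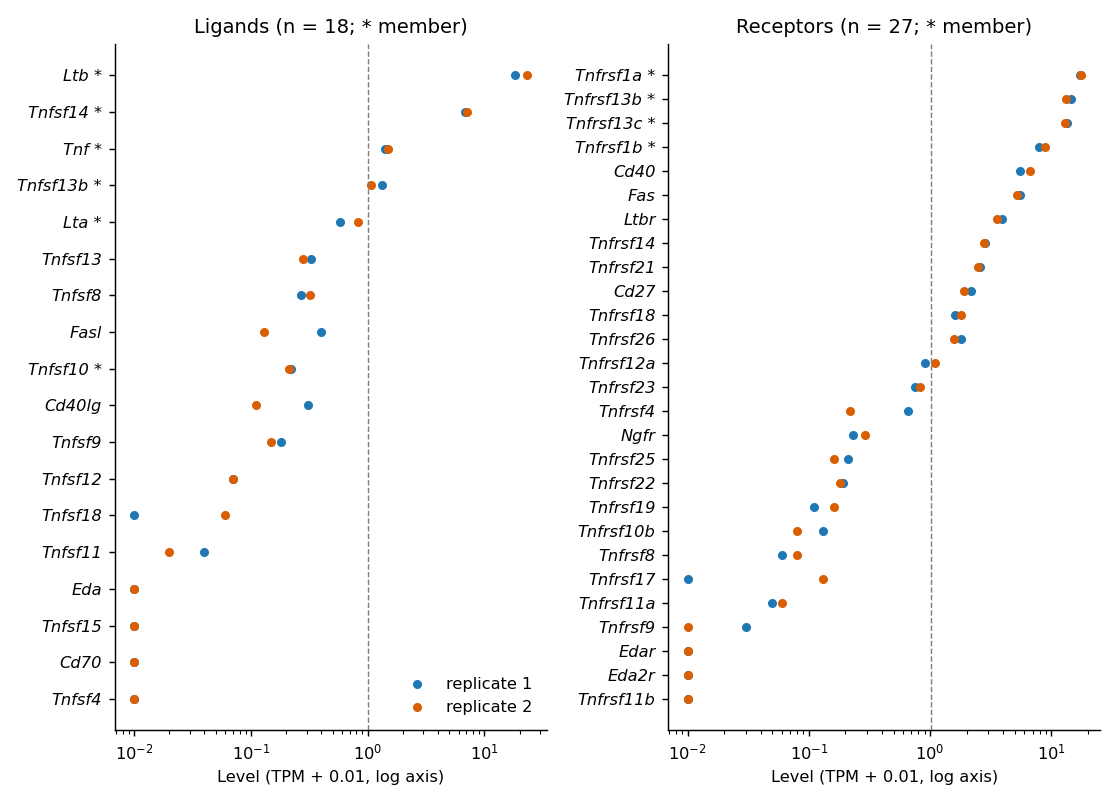
Level of all 18 ligand genes and 27 receptor genes of the family in replicates 1 and 2, as TPM + 0.01 on a log axis, with members starred and a dashed line at the detection threshold of 1 TPM. The member receptors occupy the top 4 places among receptors, and no ligand outside the members lies right of the line.

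Downstream of the receptors, 24 of 26 signalling genes were detected, and the median level was 5.97 and 5.29 TPM in replicates 1 and 2. The highest was Birc3, the ubiquitin ligase cIAP2 of the TNF receptor complexes, at 60.9 and 55.1 TPM. The kinase Ikbkb, which releases NF-kappaB by phosphorylating its inhibitor, had 28.9 and 25.2, Sharpin, a part of the linear ubiquitin ligase, had 22.9 and 18.8, and the kinase adaptor Tab2 had 12.6 and 10.9. The lowest was the adaptor Traf4 at 0.85 and 1.02. With coding transcripts alone, 20 of the 26 were detected, and the levels were 21.99 and 23.6 TPM for Birc3, 10.5 and 6.31 for Ikbkb and 0.95 and 0 for Sharpin, and Tab2 stood at 10.7 and 9.24. The count of 24 stands beside the 34.9% of protein-coding genes detected in all and is a description of a list chosen for this pathway.

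Over the 10 pairs of members, each kept its sign in both libraries with a mean above the SD. Tnfsf13b exceeded Tnfsf10 by 0.86 ± 0.11 (SD, n = 2) on the log2(TPM + 1) scale and was lower than Tnfsf14, with -1.86 ± 0.16. The pseudocount compresses such differences among low genes: per effective length with no pseudocount Tnfsf13b was 6.24 times Tnfsf10 in replicate 1 (95% interval 4.89 to 8.00) and 5.27 times in replicate 2 (4.06 to 6.87). With coding transcripts alone the mean difference between Tnfsf13b and Tnfsf10 shrank to 0.0028, and its sign differed between the libraries. Tnfsf13b then had 0.29 TPM against 0.21 for Tnfsf10 in replicate 1, and 0.13 against 0.20 in replicate 2.

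**Figure D5:**
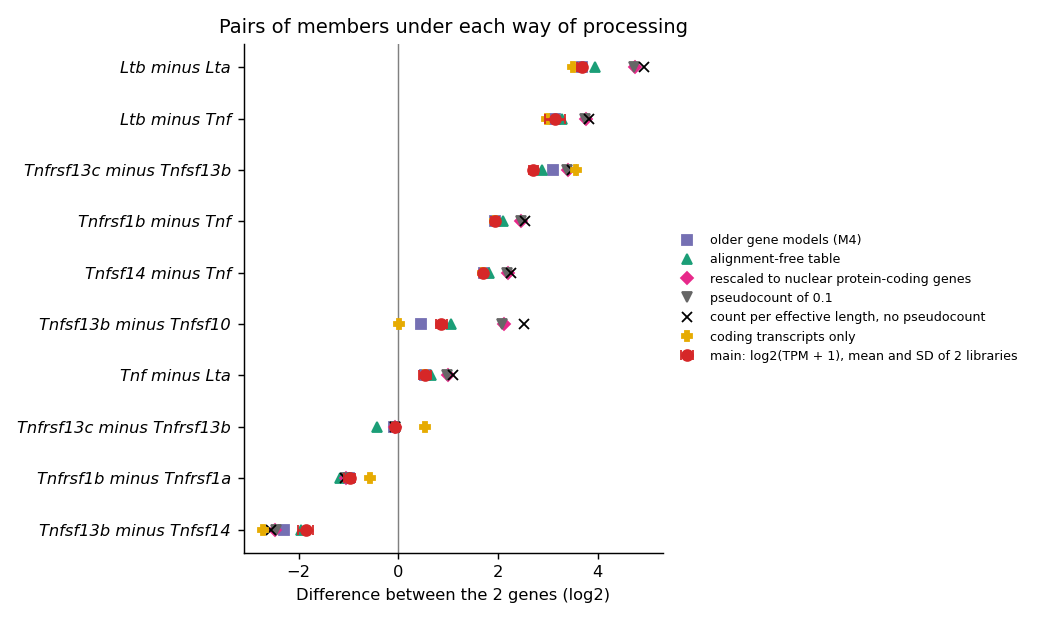
Difference between the genes of each pair on the log2 scale, as the mean and SD of the 2 libraries for log2(TPM + 1) in red and as the mean under each other way of processing in the other symbols. Tnfrsf13c minus Tnfrsf13b is the pair whose symbols fall on both sides of 0.

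Between the libraries, 8 members had at least 50 counts and 1 TPM in the higher library and could be compared. Lta and Tnfsf10 were left out, as both stayed under 1 TPM. None of the 8 differed by 2-fold or more in TPM + 1. Over all genes 0.561% were higher by that rule in replicate 2 and 0.363% lower, of 9095 that could be compared. The largest shifts in counts scaled to the library total were those of Lta, 1.505 times as high in replicate 2 (exact 95% interval 1.09 to 2.08), Ltb, 1.32 times (1.24 to 1.40), and Tnfsf13b, 0.781 times (0.630 to 0.966). The interval left out 1 for 7 of the 10 members, and for 6 of the 8 that could be compared, as it did for 43.2% of the 9095 genes. With TMM scaling these counts were again 7 and 6, beside 42.1% of the genes. In CPM 9 of the 10 members were higher in replicate 2, and in TPM 6 were. The share of all genes higher in replicate 2 was not counted, so these counts are not a result about the members. Tnfrsf13c at 1.006 (0.948 to 1.07), Tnf at 1.12 (0.922 to 1.37) and Tnfsf10 at 1.013 (0.757 to 1.35) had intervals that hold 1. These intervals cover counting error only and do not measure how neutrophils of different animals vary.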

How the data were processed

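The libraries of total RNA from blood neutrophils numbered 2, with 22646991 and 21471673 expected counts. Per the file headers, the authors deposited an expected count and a TPM per gene or transcript, with the percent of the gene's TPM that each transcript takes and bounds of an interval of each TPM, a signal-like value read here only as a check. The deposited gene tables rest on GENCODE M21 (main) or M4 models on mm10. A deposited alignment-free transcript table gave a second TPM, summed here per gene. The program, its version and the strand setting of the tables are not stated in the labels or headers, so reads of overlapping genes on opposite strands may not be separated. Rows that name no mouse gene held 1.63e-04% and 2.16e-04% of the counts and were left out.

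The members and gene lists were chosen with earlier results of these data known. A gene counted as detected where its TPM reached 1 in each library. Pairs were compared as log2(TPM + 1), a scale that understates differences of low genes, with mean ± SD over the 2 libraries, and a difference was taken to hold if its sign was the same in both and its mean exceeded the SD. Exact Poisson and conditional binomial 95% intervals used expected counts rounded to whole numbers, and they cover counting error only, since PCR reads are not independent molecules. A gene differed between libraries at a (TPM + 1) fold of at least 2, with at least 50 counts and 1 TPM in the higher library. The named genes were all members, all partner receptors, and the 4 highest and the lowest of each other list by mean TPM. Transcripts were named at 10% or more of their gene's TPM in either library, and Tnfrsf13b-203 for its alignment-free share. Promoters came from RefSeq (GRCm38.p6) and matched all 10 members by symbol, and transcript sequences and coordinates came from GENCODE M21. Python 3.11.15, pandas 2.3.3, scipy 1.17.1, R 4.3.3, edgeR 4.0.16 (TMM factors) and DESeq2 1.42.0 (size factors) were used. The fold rule was tested on simulated data scaled so that the pseudocount was small. That test therefore does not show how the rule acts at the low TPM of the members. With 1 group there was no test between conditions. Of the genes and sequences that could be shown, 1 gene that the naming rule takes in and some transcript sequence are not reported here.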

Additional observations from a re-analysis of the deposited data

How the results depend on the processing

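The detected members numbered 8 in the main table, 7 on M4 and with coding transcripts only (Tnfsf13b was lost in each), 8 in the alignment-free table, 6 at a TPM of at least 5, and 10 at a TPM of at least 0.1, with at least 10 expected counts or with TPM rescaled to nuclear protein-coding genes, and 8 without either library. The count of other ligands detected went from 0 to 5 when rescaled, at 0.1 TPM and at 10 counts. Partner receptors went from 2 to 4 under the same 3 settings and to 0 at 5 TPM, other receptors from 6 to 11 when rescaled and at 0.1 TPM, to 13 at 10 counts and to 2 at 5 TPM, and signalling genes from 24 to 13 at 5 TPM. Locus neighbours went from 2 to 4 in the alignment-free table and to 5 when rescaled, at 0.1 TPM and at 10 counts. On the M4 models, the mean log2 difference moved by more than its SD to 3.10 for Tnfrsf13c minus Tnfsf13b, 0.45 for Tnfsf13b minus Tnfsf10, 1.71 for Tnfsf14 minus Tnf and -2.29 for Tnfsf13b minus Tnfsf14. In the alignment-free table, the mean log2 difference moved by more than its SD to -1.17 for Tnfrsf1b minus Tnfrsf1a, -0.43 for Tnfrsf13c minus Tnfrsf13b, 2.88 for Tnfrsf13c minus Tnfsf13b, 2.10 for Tnfrsf1b minus Tnf, 3.93 for Ltb minus Lta, 1.06 for Tnfsf13b minus Tnfsf10 and 1.81 for Tnfsf14 minus Tnf. With TPM rescaled to nuclear protein-coding genes, the mean log2 difference moved by more than its SD to 3.39 for Tnfrsf13c minus Tnfsf13b, 2.46 for Tnfrsf1b minus Tnf, 4.75 for Ltb minus Lta, 3.75 for Ltb minus Tnf, 1.00 for Tnf minus Lta, 2.13 for Tnfsf13b minus Tnfsf10, 2.20 for Tnfsf14 minus Tnf and -2.47 for Tnfsf13b minus Tnfsf14. With a pseudocount of 0.1, the mean log2 difference moved by more than its SD to 3.38 for Tnfrsf13c minus Tnfsf13b, 2.45 for Tnfrsf1b minus Tnf, 4.73 for Ltb minus Lta, 3.74 for Ltb minus Tnf, 0.98 for Tnf minus Lta, 2.07 for Tnfsf13b minus Tnfsf10, 2.19 for Tnfsf14 minus Tnf and -2.46 for Tnfsf13b minus Tnfsf14. As count per effective length with no pseudocount, the mean log2 difference moved by more than its SD to 3.48 for Tnfrsf13c minus Tnfsf13b, 2.53 for Tnfrsf1b minus Tnf, 4.92 for Ltb minus Lta, 3.83 for Ltb minus Tnf, 1.09 for Tnf minus Lta, 2.52 for Tnfsf13b minus Tnfsf10, 2.26 for Tnfsf14 minus Tnf and -2.55 for Tnfsf13b minus Tnfsf14. With coding transcripts only, an alternative chosen after seeing the data, the mean log2 difference moved by more than its SD to -0.57 for Tnfrsf1b minus Tnfrsf1a, 0.53 for Tnfrsf13c minus Tnfrsf13b, 3.56 for Tnfrsf13c minus Tnfsf13b, 3.51 for Ltb minus Lta, 0.0028 for Tnfsf13b minus Tnfsf10 and -2.72 for Tnfsf13b minus Tnfsf14. The rescaling multiplied every TPM by 11.3 in replicate 1 and 12.0 in replicate 2. Of these pairs, only Tnfrsf13c minus Tnfrsf13b turned the sign of its mean. With coding transcripts only, Tnfsf13b minus Tnfsf10 had opposite signs in the libraries. No member differed between the libraries under any of the 7 alternatives. Over all genes, those higher in replicate 2 went from 51 to 81 with at least 10 counts, 141 with no filter, 119 at a fold of 1.5 and 129 in the alignment-free table, and those lower from 33 to 64, 153, 169 and 106. No paired analysis was possible because there is 1 group. Leaving out either library moved no result beyond its spread. For the pairs this was fixed in advance, as each of 2 values always lies within their SD of the mean. Low members rest on 68 to 216 counts a library, which limits their precision.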

Other observations

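The main and the alignment-free table gave different levels for some partner receptors. The TRAIL death receptor Tnfrsf10b had 0.12 and 0.07 TPM in replicates 1 and 2 in the main table and 0.993 and 0.590 in the alignment-free table. The TRAIL decoy receptor Tnfrsf22 had 0.18 and 0.17 TPM in the main table and 0.70 and 0.876 in the alignment-free table. Tnfrsf23, also a TRAIL decoy receptor, had 0.74 and 0.82 TPM in the main table. In the alignment-free table Tnfrsf23 had 1.94 and 2.20, above the detection threshold. Ltbr had 3.92 and 3.56 TPM in the main table and 9.49 and 7.19 in the alignment-free table. HVEM (Tnfrsf14) had 2.80 and 2.75 TPM in the main table and 8.87 and 7.81 in the alignment-free table. Tnf, for comparison, had 1.41 and 1.48 TPM in the main table and 2.18 and 2.38 in the alignment-free table. These genes were picked after their values were seen, and the cause was not tested.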
